A study of Mus musculus with 6 samples.

Results

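Mature oligodendrocytes wrap axons in myelin, a stack of membrane layers, and the 9 genes described here encode proteins of that sheath or of the cells that make it. Mog, Mag, Cldn11, Mal and Ugt8a encode membrane proteins, Trf encodes a secreted protein, and Mbp, Mobp and Cnp encode proteins that lie in the cytosol or against the inner face of the membrane. They were taken by symbol from the authors' deposited table, in which all 9 had a row and an adjusted p, out of 18732 genes in the table and 17279 with an adjusted p.

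The RNA was taken from mouse striatum, a deep forebrain region of the basal ganglia, by translating ribosome affinity purification. This method pulls down ribosomes that carry GFP-L10a, a ribosomal protein fused to a green fluorescent protein, together with the RNA on them. Every mouse carried Cre recombinase at Oprm1, the mu opioid receptor gene, and a Cre-dependent GFP-L10a at the Rosa locus (RosaLSL-GFP-L10a), so the tag was meant for cells that use Oprm1. The Cre allele is written as Oprm1Cre/+ for the samples but as Oprm1Cre/Cre for the series, and these sources do not settle which holds. Morphine mice received subcutaneous morphine at 20, 40, 60 and 100 mg/kg, 2 injections a day for 5 days, and saline mice received saline. Striata were taken 24 h after the last dose, with 2 brains pooled per library and 3 libraries per group, and the labels used here give no age. The deposited table holds model results per gene and no values per library, so the sequencing depth is unknown, and spread is known only from the authors' standard errors (SE). It does not name the group in the numerator or which of the 6 libraries were fitted, and the term RM-out in its title is not explained. A value above 0 is taken to mean higher after morphine, since genes above 0 fill the sheet called Up.

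Myelin proteins reach the sheath by different routes, which is general background and not a result of these data. Membrane and secreted proteins are made on ribosomes bound to the endoplasmic reticulum, guided there by a hydrophobic stretch of the growing chain. The mRNAs of Mbp and Mobp are known instead for being carried out into the oligodendrocyte's processes and translated there on free ribosomes, close to the forming sheath. Myelin proteins are not classical products of opioid receptor neurons, and oligodendrocytes are not the cells this Cre line was built to tag.

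The split between the classes can be read from the coding sequence. The most hydrophobic run of 19 residues in the longest annotated protein is printed below for 8 of the 9 genes, all but Mbp, as its coding bases, 5′ to 3′ on the coding strand, from GENCODE M21 on GRCm38. Capitals mark codons of alanine, cysteine, phenylalanine, isoleucine, leucine, methionine and valine, the residues with a Kyte-Doolittle hydropathy above 1.5. Membrane and secreted proteins come before the others.
Cldn11: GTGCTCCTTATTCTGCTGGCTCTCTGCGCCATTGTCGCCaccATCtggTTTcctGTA
Mag: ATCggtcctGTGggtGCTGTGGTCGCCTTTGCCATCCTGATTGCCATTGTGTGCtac
Mal: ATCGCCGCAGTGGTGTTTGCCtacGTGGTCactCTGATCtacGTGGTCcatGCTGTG
Mog: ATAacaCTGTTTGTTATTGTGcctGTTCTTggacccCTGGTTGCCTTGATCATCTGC
Ugt8a: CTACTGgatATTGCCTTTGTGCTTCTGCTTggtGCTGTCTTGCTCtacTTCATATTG
Trf: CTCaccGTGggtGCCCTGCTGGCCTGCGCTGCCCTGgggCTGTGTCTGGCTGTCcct
Cnp: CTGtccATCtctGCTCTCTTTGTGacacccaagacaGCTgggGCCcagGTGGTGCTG
Mobp: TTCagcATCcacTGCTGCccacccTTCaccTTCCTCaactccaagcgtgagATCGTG

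In Cldn11 and Ugt8a 16 of the 19 codons are in capitals, and in Mag, Mal, Mog and Trf 15 of 19. In Cnp 11 of 19 are, and in Mobp 9 of 19. For Mbp, whose bases are not shown, the count is 8 of 19, at residues 117 to 135 of the 250 of its longest annotated protein. Shorter forms of the proteins were not examined, so the window need not lie in every form of a protein. The windows lie in coding exons at chr3:31154060-31163113 (plus strand, Cldn11), chr7:30901083-30901139 (minus, Mag), chr2:127635010-127638600 (minus, Mal), chr17:37012364-37012420 (minus, Mog) and chr3:125867366-125867422 (minus, Ugt8a). Those of Trf, Cnp and Mobp lie at chr9:103228049-103230210 (minus), chr11:100580380-100580436 (plus) and chr9:120167868-120167924 (plus). The spans of Cldn11, Mal and Trf run over 2 coding exons with the intron between them, and each of the others lies in 1 exon. The mean hydropathy of the window was 2.77 in Cldn11, 2.49 in Mag, 2.41 in Mal, 2.78 in Mog, 2.73 in Ugt8a and 2.22 in Trf. It was 1.28 in Cnp, 0.33 in Mobp and 0.079 in Mbp. A protein was counted as having a predicted segment where this mean was at least 1.9, or where a run of 12 residues within the first 40 had a mean of at least 2.2. In Trf the window spans residues 3 to 21, at the start of the protein where a signal peptide lies, while in Mag, which has 627 residues, it spans residues 514 to 532.

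Of the 9 genes, 8 were higher after morphine and 0 were lower at the authors' adjusted p under 0.05, with a median of 2.69-fold (1.43 on the log2 scale). Over all 17279 tested genes 11.8% were higher by the same rule and 2.01% were lower, and the median log2 fold change was -0.01. Among genes with a mean level of at least 100, which includes all 9, 14.9% were higher. The 5 membrane genes and Trf were 2.62-fold to 3.92-fold higher, Mbp and Cnp 1.56-fold and 1.66-fold. Mobp, at 2.00-fold, did not pass the threshold. In purified RNA of a whole tissue piece, more oligodendrocytes or oligodendrocyte fragments in the sample and more RNA per cell cannot be told apart. These are not the only possible sources of the difference, and none was tested.

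**Figure D1:**
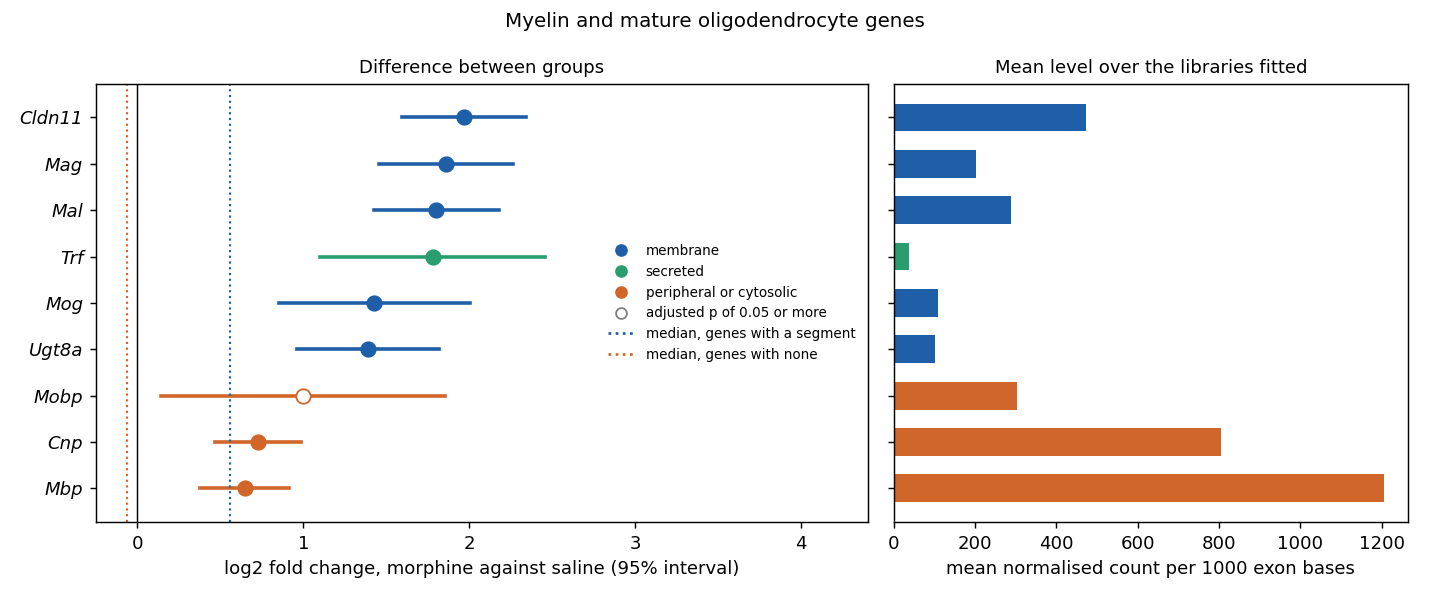
Left, log2 fold change of each gene, morphine against saline, with the interval of 1.96 SE on either side, in order of size; open circle, not past adjusted p of 0.05; dotted lines, medians of all tested coding genes with (0.56) and without (-0.06) a predicted segment. Right, mean normalised count over the libraries fitted per 1000 exon bases. The 6 membrane or secreted genes lie to the right of the other 3, and Mbp and Cnp have the longest bars.

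Of the membrane genes, 3 had the highest values of the 9. Cldn11 encodes claudin-11, the tight junction protein that seals myelin layers against each other (ENSMUSG00000037625, GRCm38 chromosome 3, 31149920 to 31164324). It reached 1.97 on the log2 scale in the authors' deposited table (SE 0.19, adjusted p = 1.46e-21), or 3.92-fold with a 95% interval of 3.02 to 5.07. Mag encodes myelin-associated glycoprotein, an adhesion protein that faces the axon (ENSMUSG00000036634, chromosome 7, 30899176 to 30914873). Its log2 fold change in the authors' deposited table was 1.86 (SE 0.21, adjusted p = 2.46e-16), or 3.63-fold (2.74 to 4.80). Mal encodes a proteolipid with several membrane passes that takes part in sorting to the myelin membrane (ENSMUSG00000027375, chromosome 2, 127633226 to 127656695). It stood at 1.80 in the authors' deposited table (SE 0.19, adjusted p = 1.21e-17), or 3.49-fold (2.68 to 4.53). These 3 neighbours in the order lie within 0.17 of each other, less than the SE of any of them, and their intervals overlap.

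Mog and Ugt8a were the lowest of the membrane genes. Mog encodes myelin oligodendrocyte glycoprotein, an immunoglobulin-like protein on the outermost layer of the sheath (ENSMUSG00000076439, chromosome 17, 37010743 to 37023398). The log2 fold change in the authors' deposited table was 1.43 (SE 0.29, adjusted p = 3.05e-05), or 2.69-fold (1.80 to 4.01). Ugt8a encodes ceramide galactosyltransferase, the enzyme of the endoplasmic reticulum that makes galactosylceramide, a main myelin lipid (ENSMUSG00000032854, chromosome 3, 125865271 to 125938619). It was at 1.39 in the authors' deposited table (SE 0.22, adjusted p = 1.82e-08), or 2.62-fold (1.95 to 3.53). The intervals of all 5 membrane genes overlap, so their order is not resolved beyond the SEs.

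Trf encodes transferrin, the iron carrier, which oligodendrocytes make in the brain and choroid plexus makes too (ENSMUSG00000032554, chromosome 9, 103204001 to 103230444). Its log2 fold change in the authors' deposited table was 1.78 (SE 0.35, adjusted p = 8.30e-06), or 3.43-fold (2.15 to 5.49). With a mean of 129 normalised counts it was the least abundant of the 9. Of its 3320 exon bases, 63.5% are shared on the same strand with the annotated gene Gm20425, so its count depends on how the authors assigned shared reads, which is not given in the sources used here. Choroid plexus markers were higher in the same comparison in 4 of 6 tested members, beside 11.8% of all tested genes. Of the 6, 3 have a predicted segment, a class in which 44.2% of tested coding genes were higher. The markers were led by Ttr, the thyroid hormone carrier transthyretin, at 25.6-fold in the authors' deposited table. Their part in the value of Trf was not tested.

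The peripheral and cytosolic proteins had smaller differences. Cnp encodes a cyclic nucleotide phosphodiesterase tied to the membrane by lipid, which keeps cytoplasmic channels in myelin open (ENSMUSG00000006782, chromosome 11, 100574904 to 100591729). The authors' deposited table gave it 0.73 on the log2 scale (SE 0.13, adjusted p = 1.40e-06), or 1.66-fold (1.38 to 1.98). Dnajc7 on the opposite strand covers 4.23% of its exon bases. Mbp encodes myelin basic protein, which binds the inner membrane faces together in compact myelin (ENSMUSG00000041607). It stood at 0.65 in the authors' deposited table (SE 0.14, adjusted p = 4.71e-05), or 1.56-fold (1.30 to 1.88). The values of Cnp and Mbp differ by less than the SE of either. The intervals of 4 of the 6 membrane or secreted genes, Cldn11, Mag, Mal and Trf, lie wholly above those of Mbp and Cnp, and those of Mog and Ugt8a reach into the interval of Cnp.

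Mobp, the third gene of this class, encodes a small basic protein of compact myelin (ENSMUSG00000032517, chromosome 9, 120149707 to 120181484). Its 2.00-fold in the authors' deposited table lay above the values of Mbp and Cnp, but on the log2 scale the SE was 0.44 and the adjusted p was 0.124. The interval, 1.11-fold to 3.62-fold, takes in the estimates of 7 of the 9 genes, all but Cldn11 and Mag. That SE is 3.06 times the median of the 200 tested genes nearest to Mobp in mean level, and only 1 of those 200 had a larger SE. For the other 8 genes the same ratio lay between 0.96 and 1.24. Mobp is among 87 genes, 0.697% of the 12486 with a mean of at least 100, whose SE is at least 2 times that of genes with a similar mean. The lowest ratio among the 87 was 2.81, which leaves a gap between them and the rest. Which library or group spread in Mobp cannot be read from a table without values per library.

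**Figure D2:**
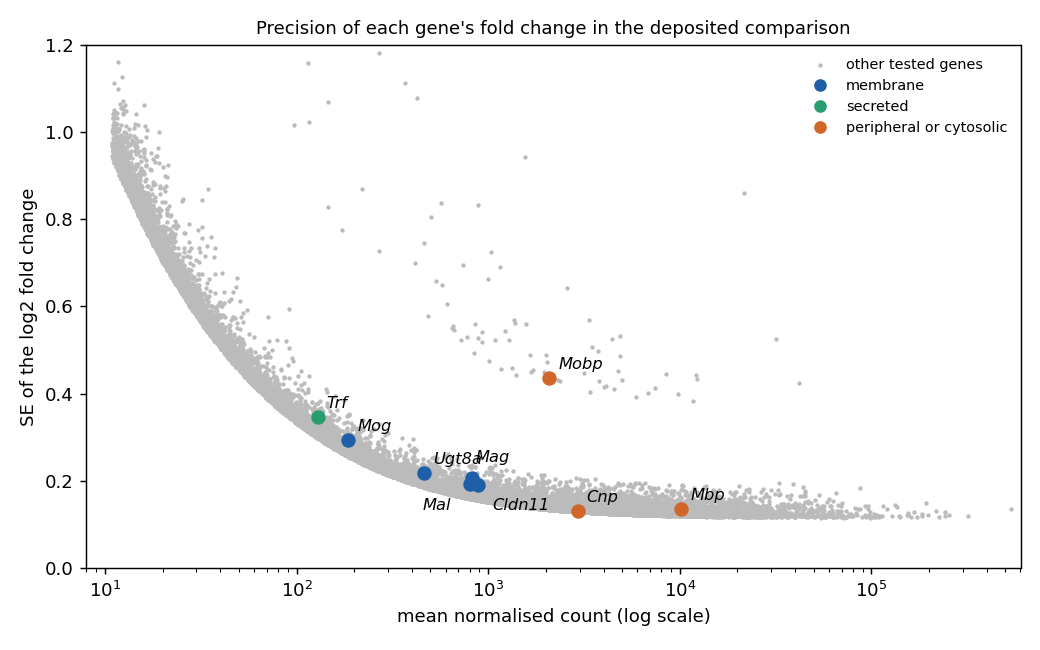
SE of the log2 fold change against the mean normalised count (log scale) of every tested gene in range (grey), with the 9 genes in the colours of their protein class. Of the 9, 8 follow the main band, while Mobp, at a mean of 2079 and an SE of 0.44, lies in a sparse band above it.

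Per 1000 exon bases, Mbp and Cnp, with the smallest fold changes, had the highest levels, while Cldn11, with the largest, came next. By mean count alone, Mobp at 2079 stood above Cldn11 at 884. Exon bases are those of all annotated transcripts of a gene, merged. On this scale the mean normalised count over the libraries fitted was 1205 for Mbp, 806 for Cnp, 473 for Cldn11, 304 for Mobp and 288 for Mal. It was 203 for Mag, 109 for Mog, 103 for Ugt8a and 38.8 for Trf. Among all tested genes Mbp stood at percentile 85.7 of this level and Trf at percentile 26.6. The 9 levels sum to 3529 per 1000 exon bases, beside 140938 for 13 markers of striatal projection neurons, the main neurons of the striatum. Oprm1, whose locus drives Cre, had 81.9 per 1000 exon bases, below 8 of the 9 myelin genes, and was at 0.29 in the authors' deposited table (SE 0.18, adjusted p = 0.350). By mean count alone, Oprm1 at 658 stood above Ugt8a at 465, Mog at 186 and Trf at 129, and below the others.

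The median log2 fold change of the 6 membrane or secreted genes, 1.79, exceeded that of the 3 peripheral or cytosolic genes, 0.73, by 1.06, and the groups do not overlap. No test is given for this gap, since 9 genes measured in the same libraries are not replicates. Genes at large also differed by class. Among 3834 tested coding genes with a predicted segment 44.2% were higher, and the median on the log2 scale was 0.56. Among 10008 with no predicted segment 2.74% were higher, with a median of -0.06. Set against its own class, each of the 9 stood near the same place. Cldn11, Mag, Mal, Trf, Mog and Ugt8a lay at percentiles 94.9 to 98.4 of the log2 fold changes of genes with a segment, and Mobp, Cnp and Mbp at 95.7 to 98.4 of those without. With the median of the own class subtracted, the gap between the groups was 0.44. The groups then overlapped through Mobp alone, which at 1.07 (SE 0.44, not called) lay above Mog at 0.87 and Ugt8a at 0.83. Cnp at 0.79 and Mbp at 0.71 still lay below all 6 membrane or secreted genes. The 8 called genes still had an adjusted p under 0.05 then, from 1.18e-10 for Cldn11 to 0.0456 for Mog.

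**Figure D3:**
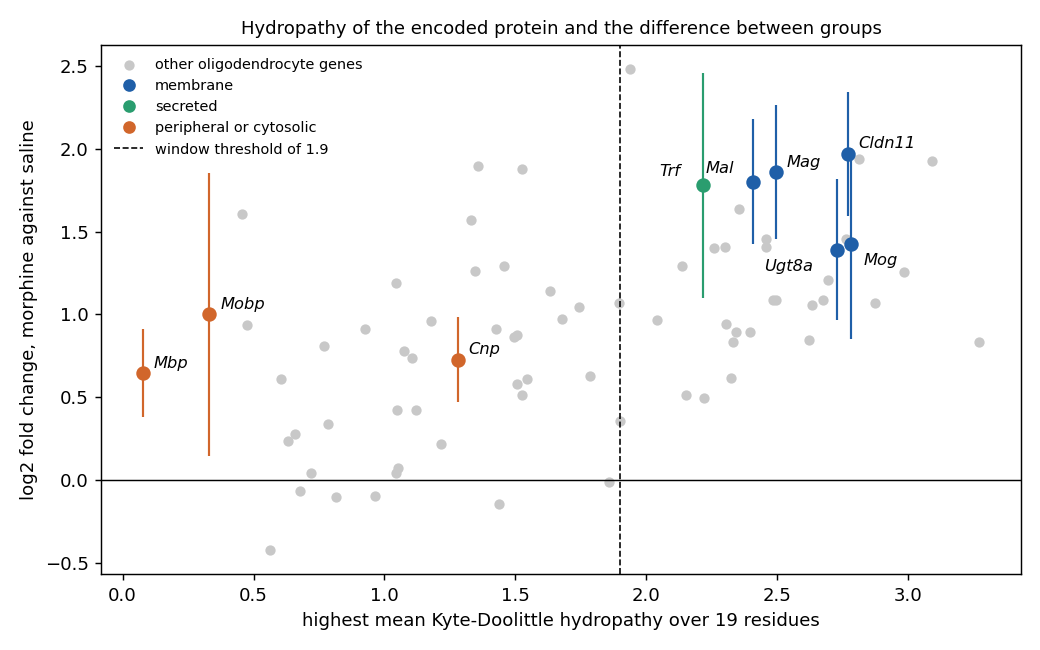
Log2 fold change, morphine against saline, against the highest mean hydropathy over 19 residues of the encoded protein, for the 9 genes (coloured by class, bars of 1.96 SE) and other oligodendrocyte genes (grey); the dashed line is the threshold of 1.9, and some proteins left of it have a predicted signal segment. Mbp, Mobp and Cnp lie left of the line at 2.00-fold or less, and the other 6 lie right of it at 2.62-fold or more.

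Other oligodendrocyte genes, listed by the place of their protein, also differed by class. Of 21 tested genes of further membrane proteins 19 were higher and 0 lower, with a median of 2.13-fold. All 21 have a predicted segment, the class in which 44.2% of all tested coding genes were higher. In the authors' deposited table the log2 fold change was 1.93 (SE 0.30) for Tmem63a, a mechanically gated channel, and 1.64 (SE 0.22) for Gpr37, an orphan receptor of oligodendrocytes. The lowest values in the authors' deposited table were 0.84 (SE 0.15) for the axon-glia adhesion gene Nfasc and 0.36 (SE 0.13, adjusted p = 0.0478) for the ephrin gene Efnb3. Both are also used by neurons, whose part in these values was not tested. Of 6 genes of secreted proteins 5 were higher, with a median of 3.31-fold. A segment was predicted in 4 of these 6, beside 44.2% higher among all genes with a segment and 2.74% without. The authors' deposited table gave 2.48 (SE 0.18) for Enpp2, which encodes the lysophospholipase autotaxin and is also strong in choroid plexus, and 1.88 (SE 0.58) for Apod, a lipid carrier whose SE is among the 87 wide ones. Lgi3 and Pcsk6, the lowest of the secreted list, were at 1.26 (SE 0.19) and 1.29 (SE 0.28) in the authors' deposited table.

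Further cytosolic or peripheral proteins were mixed. Of 21 tested genes 8 were higher and 0 lower, with a median of 1.34-fold, and 13 did not pass, beside 2.74% higher among all genes with no predicted segment. The highest in the authors' deposited table were Bcas1, a marker of oligodendrocytes that are starting to make myelin, at 3.04-fold, and Aspa, the aspartoacylase that splits N-acetylaspartate, at 2.28-fold. Sirt2, a deacetylase, and Cryab, a small heat shock protein, were at -0.14 (SE 0.13) and -0.42 (SE 0.57) in the authors' deposited table and did not pass. Several of the 13, such as Tppp and Pex5l, are also expressed by neurons, and whether this bears on their values was not tested. Of 9 transcription factors of the lineage 3 were higher, Olig1, Olig2 and Sox10. A segment was predicted in 1 of the 9, Olig1, although its protein is listed as nuclear. Among all genes, 44.2% of those with a segment and 2.74% of those without were higher. Olig2 and Olig1 stood at 0.97 (SE 0.32 and 0.20, adjusted p = 0.0232 and 3.65e-05) in the authors' deposited table. Zfp536 and St18 were at 0.22 (SE 0.17) and 0.07 (SE 0.24) there and did not pass.

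The lipid pathway of Ugt8a was higher in part. Of 7 genes for the synthesis of galactosylceramide, its sulfated form and their ceramide 5 were higher, with a median of 1.78-fold. A segment was predicted in 5 of these 7, beside 44.2% higher among all genes with a segment and 2.74% without. In the authors' deposited table Fa2h, the fatty acid hydroxylase of myelin lipids, was at 1.30 (SE 0.24) and Cers2, the synthase of ceramides with very long chains, at 1.09 (SE 0.23). Elovl7, a fatty acid elongase, and Gal3st1, the sulfotransferase that acts after Ugt8a, were at 0.62 and 0.51 (adjusted p = 0.0784 and 0.381) in the authors' deposited table, with SEs of 0.25 and 0.32. All 4 genes of lysosomal breakdown were higher, on a route that neurons share. A segment was predicted in 2 of these 4, beside 44.2% higher among all genes with a segment and 2.74% without. The rule found none in Arsa and Asah1, although both proteins are listed as lysosomal. The authors' deposited table gave Psap 1.14 (SE 0.18), Asah1 0.91 (SE 0.20), Arsa 0.88 (SE 0.19) and Galc 0.50 (SE 0.18). Around Trf, 1 of 6 tested genes of iron handling was higher, the iron transporter gene Slc11a2 at 0.64 (SE 0.17) in the authors' deposited table. A segment was predicted in 3 of these 6, and 11.8% of all tested genes were higher. The transferrin receptor gene Tfrc stood at 0.54 with a wide SE of 0.49, Ftl1 at 0.21 (SE 0.14) and Fth1 at -0.16 (SE 0.13) in the authors' deposited table, none past the threshold.

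Markers of other cells also differed in the same comparison. Over all tested genes 11.8% were higher, and among coding genes 44.2% with a predicted segment and 2.74% without. Of 10 markers of oligodendrocyte precursors 6 were higher (median 1.94-fold). Values in the authors' deposited table were, for the proteoglycan gene Cspg4 at 1.87 (SE 0.33), Gpr17 at 1.53 (SE 0.33), Tnr at 0.55 (SE 0.16) and Lhfpl3 at 0.52 (SE 0.16). Astrocyte markers were higher in 12 of 15 (median 2.87-fold), from Mlc1 and Gpr37l1 at 2.55 and 2.50 (SE 0.34 and 0.28) down to Aldh1l1 and S100b at 0.22 and -0.09 (SE 0.22 and 0.17), the last 2 not called, in the authors' deposited table. Microglia markers were higher in 7 of 9 tested (median 4.41-fold), with Csf1r, the receptor that microglia need to survive, at 2.47 (SE 0.34) in the authors' deposited table. Kl, of choroid plexus, was at 1.93 (SE 0.25) and Clic6 at 0.16 (SE 0.17) there. Endothelial and pericyte markers were higher in 4 of 10 (median 2.26-fold), with Vtn at 1.23 (SE 0.33) and Rgs5 at 0.12 (SE 0.19) in the authors' deposited table.

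Markers of striatal projection neurons were higher in 6 of 13 (median 1.27-fold), with Tac1 and Pdyn at 1.14 and 1.05 (SE 0.17 and 0.13) and Pde10a and Foxp1 at -0.13 and -0.23 (SE 0.12 and 0.13) in the authors' deposited table. The medians of the astrocyte, microglia and choroid plexus lists lay above the 2.69-fold of the myelin genes, and those of the precursor, endothelial and neuronal lists below it. The neuronal share, 6 of 13, and the endothelial and pericyte share, 4 of 10, are near the 44.2% of all tested coding genes with a predicted segment. Of the 13 neuronal markers, 9 have such a segment. A segment was also predicted for 7 of the 10 precursor, 10 of the 15 astrocyte, 6 of the 9 microglia, 3 of the 6 choroid plexus and 9 of the 10 endothelial and pericyte markers. No marker list had a member that was lower, beside 2.01% lower among all tested genes. The share of each cell type in each library cannot be read from a table without values per library, and its part in the values of the myelin genes was not tested.

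**Figure D4:**
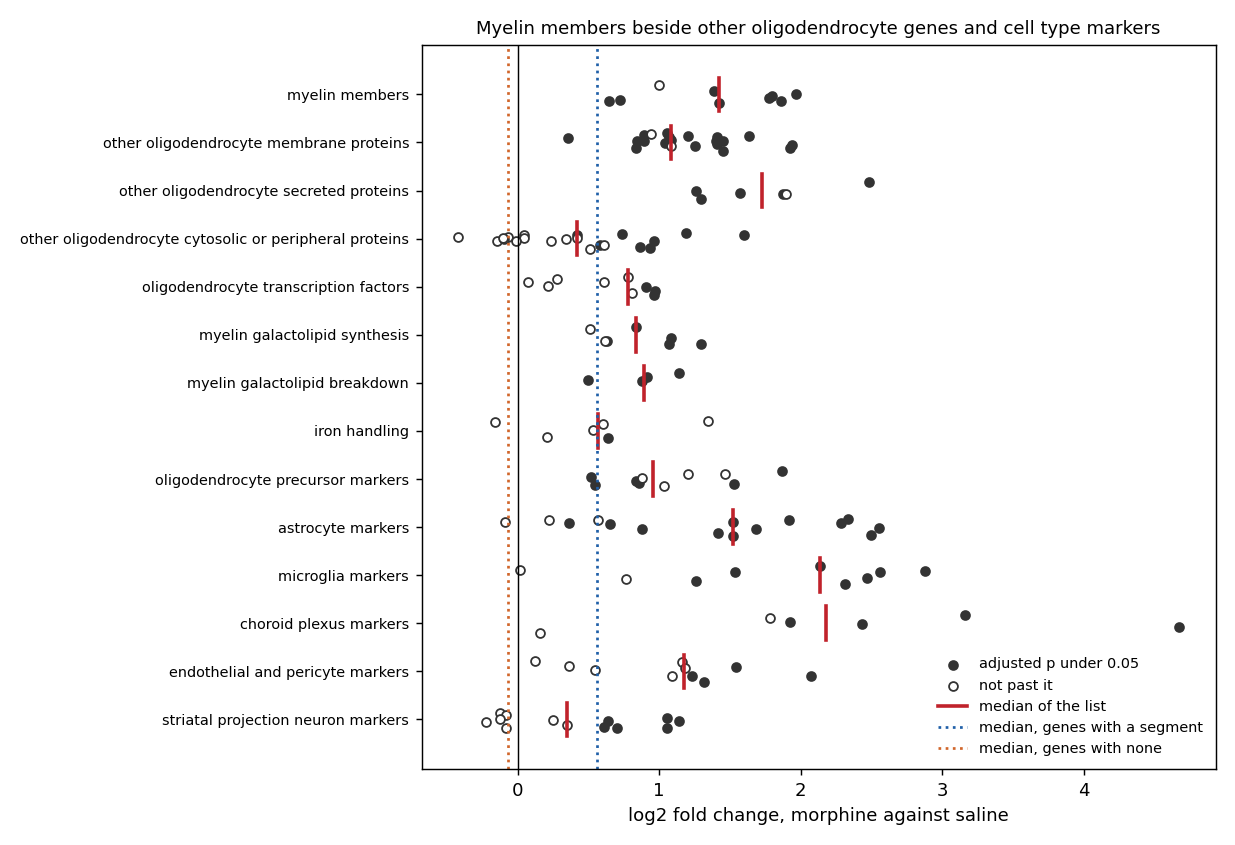
Log2 fold change, morphine against saline, of the tested genes in each list (filled, adjusted p under 0.05; open, not past it; red bar, median of the list), with dotted lines at the medians of all coding genes with (0.56) and without (-0.06) a predicted segment. The 9 myelin genes span 0.65 to 1.97 with a median of 1.43; cytosolic and peripheral proteins have a median of 0.42, and neuron markers of 0.35.

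Of the 9 genes, 6 combined an adjusted p under 0.05 with a log2 fold change of at least 1, and they are the membrane and secreted genes. Over all tested genes 2.88% were higher by this stricter rule. These 6 genes all have a predicted segment, a class in which 44.2% were higher by the adjusted p alone. The share of that class under the stricter rule was not computed.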

How the data were processed

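RNA from 3 morphine and 3 saline libraries was sequenced, and the authors' comparison of the groups was used as deposited, in 4 sheets. The submitters' processing notes name DESeq2 1.20.0, STAR 2.6.1d, mm10 and GRCm38 without saying what each did. For the counter, annotation, formula and filters the sources used here name nothing. Mean levels in the authors' deposited table are a signal, counts divided by size factors and averaged. Fold changes and SEs were deposited on the log2 scale. Their quotient was deposited as a score. The p-values that the authors deposited come from the two-sided Wald test of DESeq2, with Benjamini-Hochberg adjustment over 17279 genes. Recomputed adjusted values differed by at most 2.11e-15.

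Computed here were folds, intervals of 1.96 SE, which assume a normal estimate, levels per 1000 exon bases, typical SEs, hydropathy windows and centring. Windows used the longest complete coding sequence, without the mitochondrial genome. Symbols came from GENCODE M21 for 18726 of 18732 identifiers. Stretches of at least 100 bases at 95% identity to another gene were sought with blastn 2.17.0, and Trf alone had such a stretch, with the overlapping Gm20425. Tools were matplotlib 3.10.9, scipy 1.17.1, pandas 2.3.3, numpy 2.4.6 and Python 3.11.15. Only the Benjamini-Hochberg adjustment and the hydropathy rule were tested on simulated data.

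The members, the 14 lists and the hydropathy rule were chosen with earlier results of these data known. The classes of the listed proteins were assigned by hand, and the hydropathy rule does not follow them throughout. It predicts a segment in Olig1, listed as nuclear, and none in Pcsk6, listed as secreted, or in Arsa and Asah1, listed as lysosomal. How often the rule errs over all genes was not computed. Besides the 9 members, the genes named are the 2 highest and 2 lowest fold changes of each list with an adjusted p and a mean of at least 100, called or not, except 1 microglia marker that is not reported here. Sox10, Tppp, Pex5l and Oprm1 were named after their values were seen. The libraries may be technical or biological repeats as far as the labels say, beyond the pooling of 2 brains in each.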

Additional observations from a re-analysis of the deposited data

How the results depend on the processing

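The count of 8 higher genes was the same at an adjusted p under 0.01, with Holm adjustment, and with adjustment among genes whose mean reached 100. It was 6 where a log2 fold change of at least 1 was also required. Subtracting the median of all tested genes, or that of the own protein class, changed neither the direction nor the call of any of the 9. The gap between membrane or secreted and peripheral or cytosolic genes, 1.06, was 1.07 without Trf, and fell to 0.44 with the median of the own class subtracted. By construction that step removes the gap between the classes as a whole. With hydropathy thresholds of 1.6 and 2.0, the share of genes higher was 34.6% with and 1.87% without a segment, and each of the 9 stayed in its class. No paired analysis was possible because the deposited table holds no values per library, and leaving out libraries was not run for the same reason. Precision rests on the authors' SEs from at most 6 libraries, and Wald p-values from so few can be too small.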

Other observations

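The 87 genes with wide SEs hold 3 other genes of the lists used here. They are Apod, Tfrc and Cryab, with SEs 3.03, 3.45 and 4.19 times those of genes with a similar mean. Of the 87, 66 had a positive log2 fold change, 8 were called higher and 0 lower by the DESeq2 adjusted p of the authors' deposited table. Among all genes with a mean of at least 100, 14.9% were higher, and 2.01% of all tested genes were lower. The share of positive values over all genes was not computed.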
